A study of Mus musculus with 6 samples.

Results

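The transcripts of the heterozygous E14.5 male gonad are described here from the arrays of Nanos2+/- embryos alone, the genotype that served as the control of the series. Of the 6 arrays of the series, 2 carry this genotype, and they are called replicate 1 and replicate 2. These embryos carry 1 working and 1 null allele of Nanos2, a gene of male germ cells, on a mixed background of ICR and N2, and the crosses of the study used a LacZ allele of the gene. In every array of the series, 200 ng of total RNA from E14.5 male gonads was labelled with Cy3 and hybridized to an Agilent whole mouse genome array with 1 dye. The other 4 arrays, of embryos without a working Nanos2 allele with and without a transgene, were not used. The sources used here do not say whether an RNA sample came from 1 embryo or from several, so the spread between the 2 arrays may be technical. Both arrays lay on 1 slide and were read in the same scan.

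A spot entered the description when it was no control, carried no outlier flag and was well above background on both arrays. Its processed signal was scaled so that the 2 arrays had the same median over these spots, put on a log2 scale and averaged per probe. Of 41156 probes, 25758 met this rule (62.6%), and they are called measured. Another 1284 probes were well above background on replicate 1 alone, 702 on replicate 2 alone and 13411 on neither. The remaining probe, that of Pax2, was so on each array but in no single spot on both. No spot was saturated. A current gene name was found for 23364 of the probes, which stand for 16531 genes, and 12722 of these genes were measured by at least 1 probe (77%). A gene is given by its brightest measured probe. Its percentile is the share of the 16531 genes that stood below it, with genes that were not measured placed together at the bottom.

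The fetal testis at this stage is built of cords, in which Sertoli cells enclose the germ cells, and of the interstitium between them. Sertoli cells make anti-Müllerian hormone and desert hedgehog. Leydig cells of the interstitium turn cholesterol into androgens, and peritubular cells and fibroblasts lay down matrix. A vessel network runs through the interstitium, with red cells inside it and macrophages beside it. Male germ cells are leaving the cell cycle at this age, switch off the pluripotency genes they carry from the primordial germ cell (PGC) stage and begin to make proteins of the piRNA pathway. In whole gonads, fewer cells of a type and less RNA per cell cannot be told apart.

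The measured probes spanned 14.89 log2 units from the dimmest, at 3.63, to the brightest, at 18.52, which is a 30372-fold range of signal. Replicate 1 ran from 3.55 to 18.48 and replicate 2 from 3.56 to 18.63. The median level was 8.94, and the middle of the distribution, from the first to the third quartile, lay between 6.63 and 11.12. From the 1st to the 99th percentile of probes, the levels covered 11.72 log2 units. Signal was concentrated in few probes: the 100 brightest held 16.9% of the summed signal of measured probes on each array, and the 1000 brightest held 53.5% on replicate 1 and 54.8% on replicate 2.

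**Figure D1:**
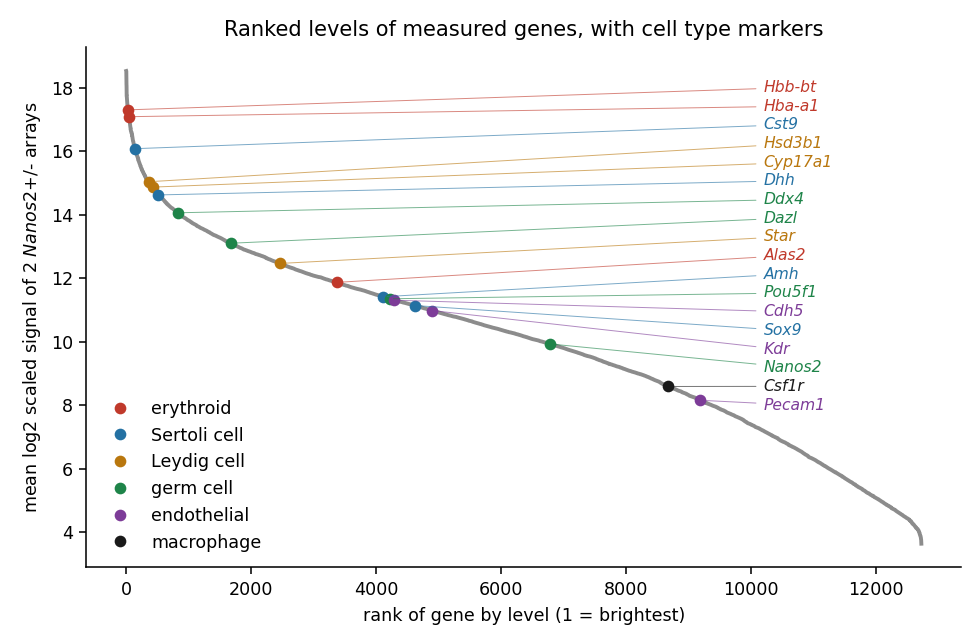
Level of the 12722 measured genes in order of rank, as the mean log2 scaled signal of the 2 Nanos2+/- arrays (vertical axis) against rank (horizontal axis, 1 is the brightest), with named cell type markers as coloured points. The globin genes Hbb-bt and Hba-a1 stand highest of the markers. The Leydig genes Hsd3b1 and Cyp17a1, the Sertoli genes Cst9 and Dhh and the germ cell gene Ddx4 follow above 14. Lower are the Leydig gene Star (12.46), the Sertoli genes Amh (11.41) and Sox9 (11.13) and the endothelial genes Cdh5 (11.30) and Kdr (10.98). The macrophage receptor gene Csf1r and the endothelial gene Pecam1 stand below 9.

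A signal on such an array depends on the probe as well as on the transcript, so an order of genes here is an order of signals. Among the 3414 genes with exactly 2 measured probes, the 2 probes of a gene differed by a median of 1.94 log2 units (3.84-fold), and in 71.7% of these genes they lay at least 2-fold apart. The brightest probes of the same genes differed between the arrays by a median of 0.19, so that the median gap between probes was 9.98 times the median gap between arrays. The gene for beta-actin, Actb, a common reference transcript, is an example of a single gene. Its probe read 10.46 and 10.78, at percentile 66.4. The 13 reference genes with a probe had a median percentile of 90.1, and bright ones among them were Tubb5, a beta-tubulin gene (16.95 and 17.19), the elongation factor gene Eef1a1 (15.56 and 15.86) and the glycolytic gene Pgk1 (14.04 and 14.38).

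The most abundant signals came from the machinery of translation. Of the 30 genes with the highest mean level, 20 encode proteins of the cytosolic ribosome, and of the 100 highest, 52 do. The brightest of them were Rps18 (18.32 on replicate 1 and 18.23 on replicate 2), Rpl7a (17.95 and 18.22), Rps14 (17.99 and 18.18) and Rps23 (17.99 and 18.13). Also among the 30 were Rps16, Rps2, Rpl5, Rpl41, Rplp2, Rpl37a, Rpl8, Rplp1, Rps27, Rps20, Rps28, Rps3, Rpl23a, Rps13 and Rpl26. Fau, whose product is cleaved into a ubiquitin-like part and a ribosomal protein, also lay among the 30, as did Eef1g, a subunit of the elongation factor complex. All 83 ribosomal protein genes with a probe were measured, with a median percentile of 99.6, and together they held 13.5% of the summed signal of measured genes on replicate 1 and 13.8% on replicate 2. Many of these genes have near-identical processed copies in the genome, which their probes cannot tell apart.

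Other genes at the top belong to energy metabolism and blood. Mdh2, the mitochondrial malate dehydrogenase of the citric acid cycle, read 17.27 and 17.41, and Cox6a1, a subunit of cytochrome c oxidase, read 17.22 and 17.35. Hbb-bt, an adult-type beta-globin gene, read 17.46 and 17.14 and was the 1 gene of the cell type lists to reach the 30 brightest. Several of the remaining places rested on 1 probe of several. Pigt, which encodes a part of the enzyme complex that attaches GPI anchors, stood first at 18.48 and 18.57, but its other probe had a mean of 7.08. Grn, the gene for progranulin, and Lrrc58, of the leucine-rich repeat genes, stood at means of 17.67 and 17.37, with dimmest probes at 13.31 and 6.72. Lars2, the mitochondrial leucyl-tRNA synthetase, stood second at 18.40 and 18.63 with a single probe. When a gene was given by the mean of its measured probes, 20 of these 30 genes remained among the 30 brightest.

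**Figure D2:**
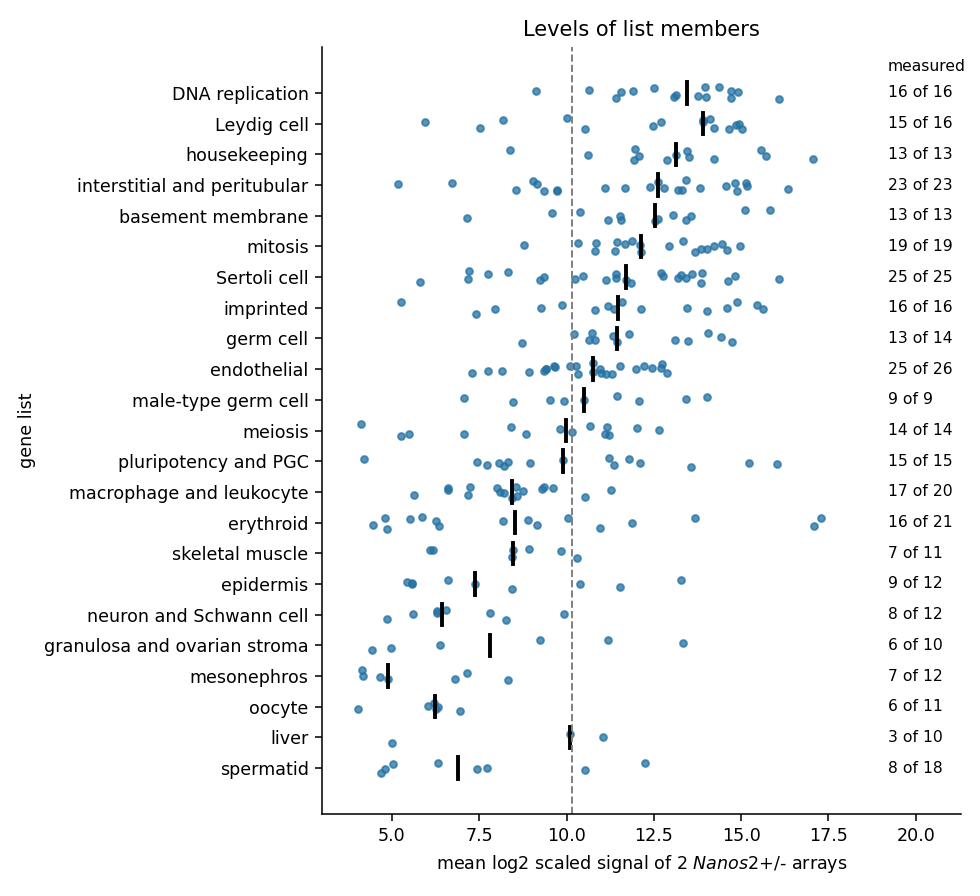
Mean log2 scaled signal of the 2 Nanos2+/- arrays for each measured member of 23 gene lists (points), with the median of the measured members (black bar) and the median of all measured genes (dashed line, 10.16). Lists are ordered by the median percentile with members not measured at the bottom, and the number of members measured of those with a probe stands at the right.

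Leydig cell genes had the highest standing of the cell type lists, with a median percentile of 90.7 against 50 over all genes with a probe, and 15 of 16 members with a probe were measured, where 77% of all genes were. The enzymes of androgen synthesis led. Hsd3b1, which converts pregnenolone to progesterone, read 15.03 and 15.04. Cyp17a1, the 17-hydroxylase and lyase on the way to androgens, read 14.89 and 14.84. Cyp11a1, which cuts the cholesterol side chain, read 14.07 and 14.14, and its second probe had a mean of 14.02. The ferredoxin Fdx1 (14.86 and 15.02) and its reductase Fdxr (14.66 and 14.66), which carry electrons to Cyp11a1, stood beside it. Star, which moves cholesterol into mitochondria, read 12.39 and 12.53. The receptors of pituitary hormones were much dimmer, with the luteinizing hormone receptor Lhcgr at 5.98 and 5.91 and the corticotropin receptor Mc2r at 7.45 and 7.60. Cyp21a1, the adrenal 21-hydroxylase, was not well above background on either array. Insl3 and the adrenal gene Cyp11b1 were matched to no probe. The 15 measured genes differed between the arrays by -0.37 to 0.38 and by 0.00 at the median.

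Genes of the interstitium outside the Leydig cell had a median percentile of 86.4, with all 23 members with a probe measured. When a gene was given by the mean of its measured probes, this became 77.5, below the 81.0 of Sertoli cell genes, while Leydig cell genes stood at 89.5. The collagen genes Col1a2 (16.46 and 16.20), Col3a1 (15.14 and 15.21) and Col1a1 (15.15 and 15.10) and the matrix proteoglycan Dcn (15.00 and 14.79) were its 4 brightest members. The second probe of Col3a1 had a mean of 7.19, and the other probes of Col1a1 had means of 11.74 and 6.32. Acta2, the smooth muscle actin that marks peritubular cells, read 14.77 and 14.85, while Myh11, the smooth muscle myosin, read 9.29 and 8.76. The nuclear receptor Nr2f2 had a mean of 13.83. Ptch1 and Gli1, which respond to hedgehog signals, stood at means of 6.72 and 9.36. Genes of the basement membrane around cords and vessels were similar in standing (median percentile 85.7, 13 of 13 measured), led by Sparc at 15.77 and 15.90, Agrn at 15.05 and 15.17 and the collagen IV genes Col4a1 and Col4a2 at means of 13.57 and 13.41.

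All 25 Sertoli cell genes with a probe were measured, with a median percentile of 78.2. Cst9, a cystatin of Sertoli cells, read 15.79 and 16.36, and Defb19, a beta-defensin, read 14.85 and 14.81 with a second probe at a mean of 14.74. Dhh, the hedgehog ligand that Sertoli cells send to the interstitium, read 14.52 and 14.72, and Inha, the inhibin alpha subunit, read 13.76 and 14.01. Amh and Sox9, which together with Dhh define the cell type, had lower signals. Amh, the hormone that makes the female duct regress, read 11.28 and 11.55, and Sox9, the factor that fixes Sertoli fate, read 11.10 and 11.17. A second Sox9 probe had a mean of 10.86 and the third 5.09. The lowest signals were those of the growth factor Gdnf, at a mean of 7.18, the transcription factor Dmrt1, at 7.20, and the receptor of follicle-stimulating hormone, Fshr, at 5.81. This list had 9 members among the brightest 10% of all genes with a probe, the Leydig list 8 and the interstitial list 10.

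Genes that mark the ovary were set beside those of Sertoli cells. Foxl2, which defines granulosa cells, was not well above background on either array, nor were Irx3 and Irx5, and Cyp19a1, the aromatase, reached that level on replicate 1 alone. Rspo1 and Wnt4, 2 signals of the ovarian pathway, were measured at 13.04 and 13.65 and at 11.05 and 11.32, followed by Gng13 (mean 9.24) and the activin antagonist Fst (6.37). The list as a whole had 6 of 10 members measured and a median percentile of 25.7. The labelled sex was checked with Y-linked genes, of which Eif2s3y (mean 12.05), Ddx3y (10.90), Kdm5d (7.91) and Uty (5.78) were measured, while Xist, expressed from an inactive X chromosome, was not well above background on either array.

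Germ cell genes included some of high signal. Of 14 members with a probe, 13 were measured, with a median percentile of 74.8, and 4 lay in the brightest 10%. Tex19.1, a factor that restrains transposons in germ cells, read 14.43 and 15.06. Mael, of the piRNA pathway, read 14.67 and 14.18. Ddx4, the germ cell RNA helicase, read 14.09 and 14.02, and Dnd1, an RNA-binding protein that keeps male germ cells alive, read 13.46 and 13.48. Dazl, the RNA-binding protein that licenses germ cells for sexual development, read 12.72 and 13.47. The receptor gene Kit was the dimmest measured member, at 8.73 and 8.70. Rnf138rt1 was well above background on replicate 2 alone.

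Pluripotency and PGC genes were all measured (15 of 15 with a probe, median percentile 58.8) but spread over nearly the whole range. Dppa5a stood at 15.48 and 16.59, Dppa3 at 14.78 and 15.68 and Dppa4 at 13.72 and 13.39, each a gene of pluripotent cells and early germ cells. Klf4, a reprogramming factor that somatic cells also express, read 12.17 and 12.02. Pou5f1, the central pluripotency factor, read 10.54 and 12.16, whereas Nanog, its partner, read 7.35 and 8.78 and Sox2 8.35 and 9.56. Tdgf1, a Nodal co-receptor, was the dimmest at 4.25 and 4.15.

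Genes of the male germ cell pathway had a median percentile of 65.3, with 9 of 9 measured. Tex101, a surface protein of male germ cells, read 13.95 and 14.11, and Tdrd1, a Tudor protein of the piRNA pathway, read 13.72 and 13.12. Dnmt3l, the cofactor of de novo DNA methylation, read 13.32 and 10.84, and Mov10l1, a helicase of piRNA formation, read 11.56 and 11.34. The second probes of Tdrd1 and Mov10l1 had means of 8.09 and 6.11. The signal of Nanos2 itself, of which these embryos have 1 working allele, was 9.34 and 10.51, at percentile 59.0. Whether this probe also reads the knock-in allele was not tested. Lefty1 and Lefty2, feedback inhibitors of Nodal, stood at means of 8.46 and 9.54.

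Meiosis genes were measured in full (14 of 14, median percentile 59.7) with none in the brightest 10%. The brightest were Syce2 (12.49 and 12.83), of the synaptonemal complex, the cohesin subunit Stag3 (12.08 and 11.95), Taf7l (10.96 and 11.45), of the general transcription factor TFIID, and Smc1b (10.40 and 11.91), another cohesin subunit. Stra8, the gene that opens meiosis in response to retinoic acid, read 10.11 and 11.21. The recombinase Dmc1, which acts on broken DNA in meiotic prophase, stood at 4.19 and 4.03, near the lowest level measured. Genes of later germ cells were mostly dim. Of 18 spermatid genes with a probe, 8 were measured, and Prm2, Acrv1, Odf1, Smcp, Pgk2, Crisp2, Tssk2 and Gapdhs, genes of sperm chromatin, flagellum, acrosome and energy supply, were not well above background on either array. The brightest were Odf2, which has a role at centrosomes of other cells, at 11.91 and 12.58, and Ldhc, the lactate dehydrogenase of germ cells, at 11.26 and 9.81, followed by the protamine gene Prm1 at 7.76 and 7.65 and Spaca1 at 7.26 and 7.60. Of 11 oocyte genes, 6 were measured, up to a mean of 6.94 for Zar1, with Padi6 at 6.31, Nobox at 6.26 and Gdf9 at 6.19, and Bmp15, Zp2, Oosp1 and Oog1 were not well above background on either array.

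Vascular genes were present and of middle level. Of 26 endothelial genes with a probe, 25 were measured, with a median percentile of 65.5, and 21 stood above percentile 50 but none in the brightest 10%. The brightest were Mmrn2, a matrix protein of vessels, at 12.81 and 12.93, the secreted factor Egfl7 at 12.91 and 12.53, the guidance receptor Robo4 at 12.76 and 12.63 and the sialomucin Emcn at 12.18 and 12.71. The defining markers ranged lower, with the cadherin gene Cdh5 at 11.34 and 11.27, the growth factor receptor gene Kdr at 11.13 and 10.82 and the adhesion gene Pecam1 at 8.21 and 8.10. Erg, an endothelial transcription factor, was well above background on replicate 2 alone.

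Blood genes divided into a few very bright globins and a dim remainder. Hbb-bt had 4 probes, all measured, from 15.13 to 17.30 in mean level, and Hba-a1, the adult alpha-globin gene, read 17.18 and 16.99. Adult globin genes exist as near-identical pairs, so each of these probes may read both copies. Hbb-y, an embryonic beta-like globin of primitive red cells, read 12.93 and 14.42, Hba-x, the embryonic alpha-like globin, 10.52 and 11.38, and Hbb-bh1 9.40 and 10.67. Alas2, the first enzyme of heme synthesis in red cells, read 12.01 and 11.72. The membrane protein genes Rhag, Epb42 and Cldn13 were not well above background on either array, and the red cell factors Gata1 and Klf1 stood at means of 4.86 and 6.27. The median percentile of the 21 members with a probe was 33.3, and 3 of them lay in the brightest 10%. Macrophage genes had a median percentile of 44.4 with 17 of 20 measured. Lyz2, the lysozyme gene, was brightest at 11.44 and 11.09, followed by the protease Ctss at 10.57 and 10.50, the chemokine Pf4 at 9.61 and 9.62 and the complement gene C1qc at 9.32 and 9.40. The second probe of Lyz2 had a mean of 5.24. The receptor genes Csf1r (8.40 and 8.77) and Adgre1 (8.21 and 7.99) were measured, and Cd163, Itgam and Spi1 were not well above background on either array.

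Lists of neighbouring tissues stood low. Of 12 mesonephros genes, 7 were measured with a median percentile of 23.6, Pax2 was not among them and Pax8, which like Pax2 marks the kidney lineage, read 4.85 and 4.45. The brightest of this list were Lhx1, a factor of the early kidney ducts, at 7.47 and 9.18, the cadherin Cdh16 at 5.97 and 8.33 and Gata3 at 6.84 and 6.77, while Ret, Sim1 and Hoxd13 were not well above background on either array. Of 10 liver genes, 3 were measured: Afp (11.56 and 10.54), Ahsg (10.46 and 9.72), both secreted by fetal liver, and Apoh (5.10 and 4.92), whereas the albumin gene Alb was well above background on replicate 1 alone and the plasma protein genes Apoa2, Fgb, Fga and Ttr and the factor Hnf4a on neither. Skeletal muscle genes (7 of 11 measured, median percentile 32.9) were led by Myh8 (mean 10.29), Actn2 (9.84), Acta1 (8.94) and Mylpf (8.45), of the contractile apparatus. Of the muscle regulators, Myog read 5.73 and 6.46, and Myod1 and Myf5 were not well above background on either array. Neuron and Schwann cell genes (8 of 12, 31.7) included Tubb3 (9.93), Elavl4 (7.80) and Nefm (6.54), with Stmn2 not well above background. Epidermis genes (9 of 12, 32.4) were led by Sfn (13.26, with its dimmest probe at 5.11), Lor (11.53), Evpl (10.38) and Krt14 (8.43), with Dsg3, Ivl and Krt10 not well above background. Of the large receptor families of the nose, some members of which are known from male germ cells, 73 of 886 olfactory receptor genes (8.24%) and 6 of 116 vomeronasal receptor genes (5.17%) were measured, the former at a median level of 4.92.

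Genes of DNA replication had a median percentile of 91.9 with 16 of 16 measured, and those of mitosis 82.4 with 19 of 19. The replicative helicase gene Mcm6 read 15.97 and 16.19, with the further subunits Mcm4 and Mcm7 at means of 14.72 and 14.72, and the ligase gene Lig1 read 14.89 and 14.92. Cdc20, which triggers anaphase, read 14.81 and 15.13, and Birc5 (mean 14.59), Ccnb2 (14.45) and Cenpe (14.23), which act in mitosis, came next. The other probes of Cenpe had means of 8.53 and 6.51. These genes are used by every dividing cell and do not say which cells divide. Imprinted genes (16 of 16 measured) had a median percentile of 75.7, led by Mest at 15.48 and 15.76, the growth factor gene Igf2 at 15.38 and 15.53, Dcn and the cell cycle inhibitor Cdkn1c at 14.45 and 14.73. Subunits of the respiratory chain and ATP synthase (85 of 87 measured) had a median percentile of 96.0 and those of the proteasome (43 of 44) of 93.8.

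Promoter sequences were set beside these levels, from RefSeq on GRCm38.p6, with 250 bases before and 50 after each gene start. A promoter was given for 79.9% of the genes with a probe, so a comparison over all of them is void, and lists were described where at least 80% of members had one. In these windows the germ cell list held 19.9 CpG dinucleotides on average (12 of 14 genes with a promoter), meiosis 19.3 (13 of 14), DNA replication 22.0 (15 of 16), the respiratory chain 20.1 (72 of 87), the proteasome 18.7 (38 of 44), collagens 14.7 (31 of 38) and claudins 10.7 (16 of 20). Among lists of low standing, spermatid genes held 6.83 (16 of 18), oocyte genes 7.56 (9 of 11), liver genes 3.89 (9 of 10), olfactory receptor genes 1.27 (766 of 886) and vomeronasal receptor genes 1.18 (104 of 116). Over all 27025 genes of the promoter table, of which 13205 have a probe, the mean was 12.3. Standing and CpG count did not go together in every list. The mesonephros and granulosa lists, also of low standing, held 25.1 and 23.5. The Leydig and interstitial lists, both of high standing, held 8.67 and 10.9. With promoters for 8 of 12, 7 of 10, 9 of 16 and 13 of 23 members, all of these are under the limit. CCAAT on either strand, at positions -150 to -41 from the start, lay in 46.7% of promoters of replication genes and in 20.3% of those of the table. Replication genes had the highest share of the lists that met the limit. The share was 30.8% for meiosis, 25% for germ cell, 18.4% for proteasome, 14.1% for spermatid and 5.56% for oocyte genes.

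The letters TATAAA, read on the gene's strand at positions -40 to -21, were found in 2.07% of all genes of the table. Genes were then taken from the germ cell, pluripotency and PGC, male-type, Sertoli, Leydig, interstitial, endothelial and erythroid lists and the 30 brightest. Other lists were left out of this step. Of the 47 such genes with a promoter at or above percentile 90, 2 had these letters. They were the globin gene Hbb-bt and Ren1, the renin gene, which fetal Leydig cells of the mouse express. The windows from position -40 to -11 are printed for these 2 and for a bright marker each of red, Leydig, Sertoli and germ cells, to show start regions behind strong signals of each cell type, with TATAAA in capitals. A match is a description of these letters and not a tested site.
Hbb-bt (chr7:103813934-103813963, minus strand): cagcattgggtaTATAAAgctgagcagggt
Ren1 (chr1:133350634-133350663, plus strand): tacatggtgtgTATAAAagaaggctcaggg
Hba-a1 (chr11:32283632-32283661, plus strand): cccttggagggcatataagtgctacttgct
Hsd3b1 (chr3:98859805-98859834, minus strand): tcctccaagctatttaaacagaccaagatc
Cst9 (chr2:148835107-148835136, plus strand): tctgcccaagctgaagagattatgtgttgg
Ddx4 (chr13:112652321-112652350, minus strand): gcgtccgcccgcacgtgcagccgtttaagc

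The 2 arrays gave closely similar orders of signal. Across the 25758 measured probes, Pearson's r between the arrays was 0.989 and Spearman's rho 0.989. The probes of an array all read the RNA sample of that array, so they are not independent. The difference of a measured gene, replicate 2 minus replicate 1, had a median size of 0.22 (1.16-fold), and 89.6% of genes lay within 1.5-fold. At least 2-fold higher in replicate 2 were 131 of 12722 genes (1.03%), and at least 2-fold lower 285 (2.24%), which makes 3.27% in either direction. The split depended on the scaling: with the arrays scaled to the median of all non-control spots, which moved the median difference over all genes from 0.09 to 0.28, 238 genes were higher and 186 lower. The measured genes were split into 5 equal bins by level. In the lowest bin 9.55% of genes passed 2-fold, and in the highest 0.236%. With 1 array against 1, none of these differences has a test.

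The difference also drifted with level. Its median was -0.08 in the lowest bin and 0.19 in the highest, and over all measured genes 0.09. The 10 levels of spiked control RNA, added to each sample and not used in the scaling, moved further than the genes did. The 7 levels that were well above background on both arrays read 0.78 to 1.25 higher in replicate 2, with a median of 0.86. Within an array, spots of 1 probe agreed closely, with a median SD of 0.07 on replicate 1 and 0.06 on replicate 2 over 188 probes printed a median of 10 times, against a median difference of 0.25 between the arrays for the same probes. The part of the spiked RNA's shift in the differences of genes was not tested.

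**Figure D3:**
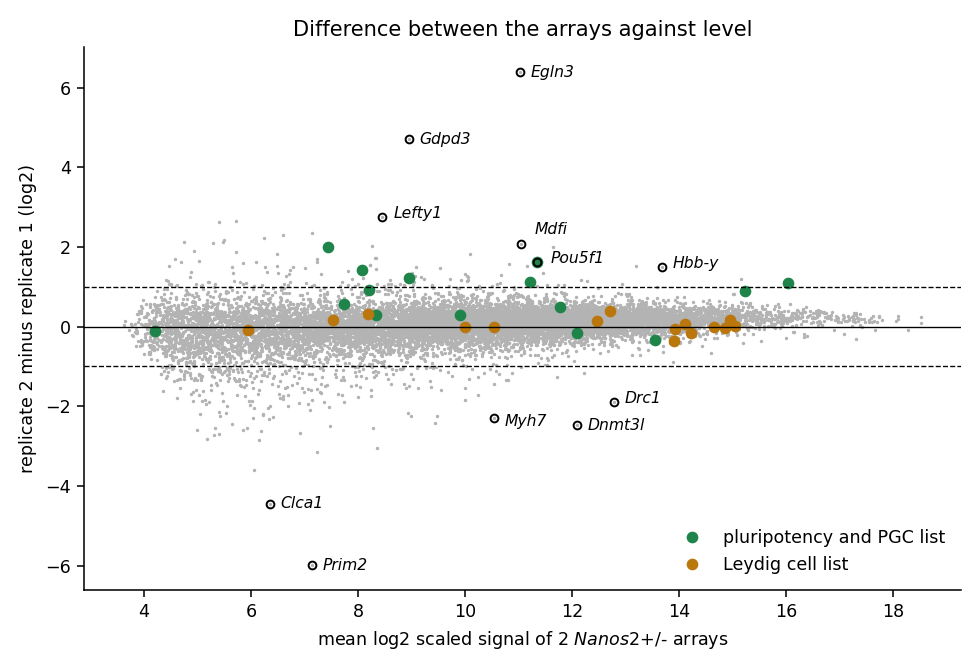
Replicate 2 minus replicate 1 (log2, vertical axis) against the mean log2 scaled signal of the 2 Nanos2+/- arrays (horizontal axis) for the 12722 measured genes (grey), with the measured members of the pluripotency and PGC list (green) and the Leydig cell list (orange). Dashed lines mark 2-fold; 6 of 15 pluripotency and PGC genes lie above the upper line and all 15 Leydig cell genes lie between the lines.

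Genes of 4 germ line lists differed more between the arrays than genes of 5 lists of resident somatic cells. The lists were grouped in this way after their values had been seen. The spermatid and oocyte lists, also of the germ line, and lists of other tissues were left out of both groups. In the spermatid list 2 of 8 measured genes passed 2-fold, with a median size of 0.54, and in the oocyte list 2 of 6, with 0.27. Of 105 measured genes of the Sertoli, Leydig, interstitial, endothelial and macrophage lists, 3 differed by at least 2-fold (2.86%, against 3.27% of all measured genes), and the median size of their difference was 0.14. Of 51 measured genes of the germ cell, pluripotency and PGC, male germ cell and meiosis lists, 13 did (25.5%), and the median size was 0.49. By list these were 1 of 13 germ cell, 6 of 15 pluripotency and PGC, 4 of 9 male-type and 2 of 14 meiosis genes. The germ cell list (7.69%) thus did not exceed the Sertoli list, where 2 of 25 passed 2-fold (8%). Sertoli genes had a median size of 0.24, where all genes had 0.22 and germ cell genes 0.45. Lists outside both groups had median sizes that also exceeded that of all genes, with 0.30 for erythroid, 0.34 for granulosa, 0.41 for mesonephros, 0.67 for skeletal muscle and 0.75 for liver genes, over 16, 6, 7, 7 and 3 measured members. Among members at or above the median level of all measured genes, the median size was 0.49 for 30 germ line genes and 0.14 for 61 somatic genes. When each gene was set against the genes of its own bin of levels, 37 of the 51 germ line genes and 35 of the 105 somatic genes differed by more than the median of that bin. Of the spermatid genes 6 of 8 did, and of the oocyte genes 2 of 6. With normexp background correction, which raised the median size over all genes to 0.64, the median sizes were 0.68 and 0.56, and 18 and 8 genes passed 2-fold, where 2435 of all 12722 genes did.

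**Figure D4:**
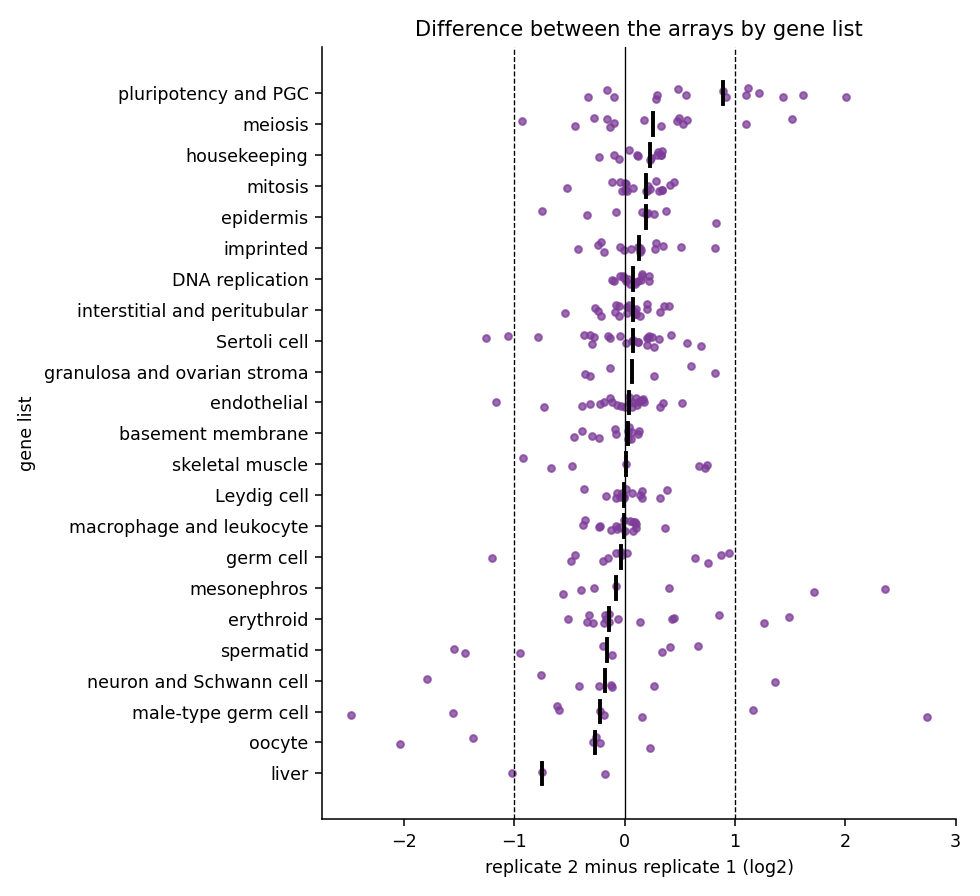
Replicate 2 minus replicate 1 (log2) for each measured member of 23 gene lists (points), with the median of each list (black bar); dashed lines mark 2-fold. The pluripotency and PGC list has its median at 0.89, the Leydig list lies between -0.37 and 0.38, and the male-type germ cell list spreads from -2.48 to 2.74.

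Pluripotency and PGC genes were higher in replicate 2. Of 15, 12 were higher and 3 lower, with a median difference of 0.89 where all measured genes had 0.09, and 6 were at least 2-fold higher (1.03% of all measured genes were) and none 2-fold lower. The 6 were Pou5f1 (1.62), Gdf3 (2.00), Nanog (1.43), Sox2 (1.22), Zfp42 (1.12) and Dppa5a (1.10). The second probes of Zfp42 and Dppa5a differed in the same direction, by 1.46 and 1.17. Members that did not follow were Dppa4 at -0.33, Klf4 at -0.16 and Tdgf1 at -0.10. The list's median was 0.69 after quantile normalization and 0.53 after normexp background correction, when the median over all genes was 0.03 and 0.33. After normexp 4 members were at least 2-fold higher and 1 at least 2-fold lower, and the Sertoli list, at 0.62, and the Leydig list, at 0.55, had higher medians.

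Genes of the male pathway went both ways. Dnmt3l fell by 2.48 from replicate 1 to replicate 2 (5.58-fold lower), and Piwil1, a Piwi protein, fell by 1.56, while Lefty1 was 2.74 higher (6.69-fold) and Nanos2 1.17 higher. Tdrd1 differed by -0.60 and its second probe by -1.11. Of 14 measured meiosis genes, Smc1b (1.51) and Stra8 (1.10) were at least 2-fold higher in replicate 2, where 1.03% of all measured genes were. None was 2-fold lower, where 2.24% of all measured genes were. In the general germ cell list, Tex15, which acts in piRNA-guided silencing and meiotic recombination, fell by 1.20, and Nanos3 (0.95), Tdrd12 (0.87), Dazl (0.75) and Tex19.1 (0.63) were higher, while Ddx4 (-0.08) and Dnd1 (0.02) differed by less than the median of all genes. The summed signal of the 13 measured germ cell genes was 0.157% of that of all measured genes on replicate 1 and 0.151% on replicate 2, and that of the pluripotency and PGC genes 0.158% and 0.253%.

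A few somatic and blood genes differed as well. Embryonic globins were higher in replicate 2, Hbb-y by 1.49, Hbb-bh1 by 1.27 (second probe 1.38) and Hba-x by 0.86, whereas the adult globins Hbb-bt (-0.32) and Hba-a1 (-0.19) and Alas2 (-0.28) were slightly lower. In the Sertoli list Hsd17b1, a steroid dehydrogenase, and Fshr differed by -1.26 and -1.05, and in the endothelial list Vwf, the von Willebrand factor gene, by -1.17 (second probe -1.09). Of 7 measured mesonephros genes, Lhx1 and Cdh16 were higher in replicate 2 by 1.72 and 2.36. The remaining 5 genes of that list differed by -0.56 to 0.41, and the part of adjoining tissue in any result was not tested.

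Of the 6361 genes at or above the median level, 25 were at least 2-fold higher in replicate 2 and 16 at least 2-fold lower, and 5 of these differed by at least 4-fold. The largest was Egln3, an oxygen-sensing prolyl hydroxylase that hypoxia induces, at 7.82 on replicate 1 and 14.21 on replicate 2 (83.9-fold), on its single probe. Among genes higher in replicate 2, the next were Mdfi, an inhibitor of myogenic factors, at 10.01 and 12.09, whose second probe also differed by 2.06, and Tdh, the threonine dehydrogenase that mouse pluripotent cells use, at 10.63 and 12.64. The further genes higher in replicate 2 were Ap3b2 (1.70), a neuronal adaptor subunit, Pou5f1, Asb9 (1.58), Tspan3 (1.51), Smc1b, Hbb-y and Dpagt1 (1.35), the first enzyme of N-glycan synthesis. For Tspan3 the second probe differed by 0.13.

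Lower in replicate 2 at these levels were, after Dnmt3l, the cardiac and slow muscle myosin gene Myh7 at 11.68 and 9.39 (second probe -2.37), Drc1, a regulator of ciliary dynein, at 13.72 and 11.83, and Ifi27l2a, an interferon-induced gene, at 11.10 and 9.39 (second probe -1.80). Ldhc (-1.44), Padi3 (-1.35), a peptidyl arginine deiminase, Igflr1 (-1.35), Hsd17b1, the splicing factor Cwc22 (-1.26) and Tex15 followed. Among all 59 genes that passed 2-fold and had a second measured probe, that probe differed in the same direction in 50 (84.7%) and by 2-fold in 25, where the signs of 2 probes matched in 69.9% of all genes with 2 or more.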

How the data were processed

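The authors hybridized Cy3-labelled RNA to 1-dye Agilent arrays and deposited 1 scanner file per array, made with Agilent Feature Extraction (9.5 in the labels, 9.5.3.1 in the file headers). The deposited value is the processed intensity of each spot, after background subtraction by that software. The series' value table carries these intensities too, within 0.496%. Of 45018 spots per array, 1639 were controls, and 124 flagged as outliers on either array were left out, which removed all spots of 18 probes. Intensities were scaled to a common median (521 on replicate 1 and 463 on replicate 2 before scaling, factors 0.942 and 1.06) and put on log2. The number of arrays, 2, limits the precision.

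Gene names came from a RefSeq table by way of the accessions printed in the array files. Of the measured probes, 17989 had a name and 7769 had none. The genes and lists were chosen with earlier results of these data known. Named by rule were the 30 brightest genes, the defining markers, 4 brightest and dim members of each list, and the 10 genes highest and 10 lowest in the difference between arrays at or above the median level (10.16). Other list members were named after their values had been seen, and some genes that the rule names are not reported here. Numbers came from Python 3.11.15, numpy 2.4.6 and pandas 2.3.3, figures from matplotlib 3.10.9, and normexp from limma 3.58.1 in R 4.3.3 on the median spot and background intensities, as the files used here have no mean signal. In normexp a constant was added to every spot after the correction. The steps were tested on simulated data. The alternatives were 2 other scaling points, quantile normalization, normexp, outliers kept, the value table, other filters, the mean of probes and each array alone.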

Additional observations from a re-analysis of the deposited data

How the results depend on the processing

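No paired analysis was possible because 1 genotype is described and no comparison between groups was made. Counts of measured probes were within 1.5 times with probes well above background on at least 1 array, outliers kept or 1 array alone, and 41156 without a filter on dim spots. The range of 14.89 log2 units became 12.30 with normexp and 14.93 to 15.08 on 1 array alone. The constant added in normexp lifts dim signals most on the log2 scale, so a shorter range follows from that setting. A list's median percentile was taken to move when it changed by more than 2.04 points, the SD between single arrays pooled over the lists. With a gene given by the mean of its probes, it moved to 77.5 for germ cells, 65.5 for pluripotency and PGC, 81.0 for Sertoli cells, 63.1 for endothelial and 77.5 (from 86.4) for interstitial genes, and with normexp to 61.7 for pluripotency and PGC and 67.3 for the male-type list. On 1 array alone it ranged from 72.4 to 76.0 for germ cells and from 64.8 to 69.1 for the male-type list. The Leydig and erythroid lists did not move under these settings. Genes at least 2-fold higher and lower in replicate 2 numbered 131 and 285, 238 and 186 when scaled to the median of all spots, 465 and 1970 with normexp, 412 and 756 without the filter and 25 and 16 at or above the median level. The median difference over all genes, 0.09, was 0.28 when scaled to the median of all spots and 0.33 with normexp. With normexp the list medians were 0.38 for germ cells, 0.53 for pluripotency and PGC, 0.061 for the male-type list, 0.62 for Sertoli cells, 0.55 for Leydig cells and 0.36 for endothelial genes, and relative to all genes the order of pluripotency and PGC before the others was lost. The cause was not tested. Of 148 alternative values for the main lists, the range and the counts, 123 stayed within these limits. A difference between arrays cannot be computed with 1 of them left out. Signals near background set the limit: 9.55% of genes in the lowest of 5 bins of level differed by 2-fold.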

Other observations

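Below the median level, further large differences between the 2 arrays were seen on single probes. Prim2, a subunit of DNA primase, read 10.13 on replicate 1 and 4.14 on replicate 2 (63.4-fold), while its partner Prim1 read 12.98 and 13.14. Gdpd3, a phosphodiesterase gene, read 6.60 and 11.30 (25.9-fold), and Clca1, of the chloride channel accessory family, read 8.58 and 4.13 (21.8-fold). Of all measured genes, 53 differed by at least 4-fold.

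Egln3 was set beside other genes that hypoxia is known to induce, a list drawn up after its value had been seen. All 9 with a probe were measured, and they differed by -0.44 for Vegfa, the vascular growth factor, to 0.41 for the glucose transporter Slc2a1, with a median of 0.05, where Egln3 differed by 6.39. Ldha, the lactate dehydrogenase of glycolysis, read 15.14 and 15.36, Bnip3, of mitophagy, 11.28 and 11.35, and Egln1, the paralog of Egln3, 9.51 and 9.44. None of the 9 passed 2-fold, where 3.27% of all measured genes did, and with normexp 2 were at least 2-fold lower in replicate 2. Their promoters, present for all 9, held 21.2 CpG dinucleotides on average.

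Within large families, the share of measured genes ranged widely. Collagen genes were measured in 32 of 38 cases (median percentile 62.6), Hox genes in 27 of 37 (29.3), claudins in 12 of 20 (25.8) and keratins in 18 of 38. The brightest claudin was the endothelial Cldn5, at 11.47 and 11.61.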
